A study of Mus musculus with 18 samples.

Results

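The first step from granulocyte-monocyte progenitors (GMPs) to committed neutrophil precursors (preNeu) was followed in bulk RNA-seq by setting the 3 libraries titled preNeu against the 3 titled GMP. These are 6 of the 9 RNA libraries and 6 of the 18 samples of the series, and all 34896 genes of the expression table were considered. Cells came from bone marrow of wild type C57BL/6 mice of 6 to 12 weeks, with no treatment and no altered allele. GMPs were sorted as lin- cKIT+ SCA1- CD16/32+ CD34+, where the lineage cocktail removed GR1 and CD11b positive cells and bones were pooled. The preNeu were gated on Mac-1, Gr-1, intermediate or high cKIT and intermediate CXCR4. Libraries were made with a stranded poly(A) kit. The other 3 RNA libraries, of mature neutrophils (matNeu), entered the fit and are given as levels beside the comparison.

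The title and the cell type entry of the labels name different cells for all 9 RNA libraries, and the titles were followed. The libraries titled GMP are entered as matNeu, those titled preNeu as GMP and those titled matNeu as preNeu. The genes of the sort gates were therefore read first. Cd34, which encodes the sialomucin used to gate GMPs, was at 498, 486 and 425 TPM in the libraries titled GMP and at 1.22, 3.27 and 2.13 TPM in those titled preNeu. Ly6g, which encodes the antigen that Gr-1 antibodies bind on neutrophils, was at 0, 1.06 and 0 TPM against 380, 275 and 285 TPM. Kit was at 194, 191 and 177 TPM against 45.9, 53.7 and 70 TPM, so that the receptor kept by the preNeu gate was present at a lower level. Mmp9 and Cxcr2, which neutrophils express late, were highest in the libraries titled matNeu, at means of 6539 and 3468 TPM. The values of Cd34, Ly6g, Kit, Mmp9 and Cxcr2 follow the titles. Other gate genes did not separate them as clearly. Cxcr4, also part of the preNeu gate, was lower in the libraries titled preNeu on TPM, as given below. The 5 genes listed for the GMP gate summed to means of 1517 TPM in GMP, 736 TPM in preNeu and 3117 TPM in matNeu libraries, highest in the last. After rescaling 2 of them were called lower and 1 higher in preNeu.

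GMPs give rise to neutrophils and monocytes. Commitment to the neutrophil lineage is known for the ordered making of granules: primary (azurophil) granules carry myeloperoxidase and serine proteases and are filled first, secondary (specific) granules carry lactoferrin and cathelicidin, and tertiary granules with gelatinase come last. The precursors still divide, then leave the cell cycle, and their nuclei become segmented. C/EBP epsilon and GFI1 are transcription factors needed for neutrophils to form.

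Values were deposited as TPM (transcripts per 1000000), a unit scaled by transcript length in which each library sums to 1000000, so a gain of a few very abundant transcripts lowers all others. The comparison was therefore made on 2 scales, TPM as deposited and TPM rescaled by the median ratio of each library to the geometric mean of all 9, and a log2 change without a scale is of TPM as deposited. Changes are differences of log2(value + 1), preNeu minus GMP, with their standard error (SE), which understates the change of low genes. A gene was called higher or lower at an adjusted p under 0.05 by limma over 13061 tested genes. With 3 libraries against 3, the exact permutation test of a single gene cannot go below 0.1. Nothing states that libraries of a group came from separate animals, so p-values measure the spread between libraries only. That spread was pooled over all 9 RNA libraries, so the spread of matNeu entered each SE and p-value. In bulk RNA, fewer cells of a type and less RNA per cell cannot be told apart.

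On TPM as deposited 1925 genes (14.7%) were called higher and 5781 (44.3%) lower in preNeu, with a median change of -0.52 over all tested genes and quartiles of -1.30 and 0.19. After rescaling 3027 (23.2%) were higher and 3679 (28.2%) lower, with a median of -0.09 and quartiles of -0.85 and 0.59. Of the genes called higher on TPM, 1919 were also called higher after rescaling, and all 3679 called lower after rescaling were lower on TPM. The scales disagreed on 2102 genes that were lower on TPM only and on 1108 that were higher after rescaling only. No gene was called in opposite directions. Changes of at least 5 on the log2 scale were more often rises, with 58 up against 25 down on TPM and 71 against 8 after rescaling. On TPM as deposited, where the median change was -0.52, every preNeu library lay above every GMP library for 2229 tested genes and below for 6320. These last counts were not taken after rescaling.

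**Figure D1:**
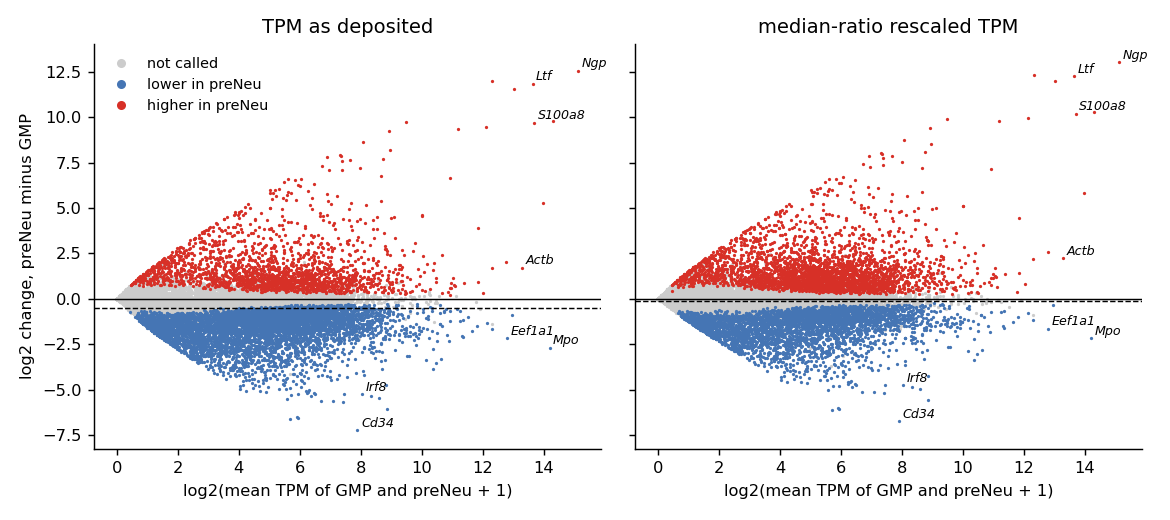
Log2 change from GMP to preNeu (vertical axis) against the mean level of the 2 cell types (horizontal axis, log2 of mean TPM + 1) for each of 13061 tested genes, on TPM as deposited (left) and rescaled TPM (right). Red points were called higher, blue lower and grey neither, and the dashed line marks the median of all genes, at -0.52 on the left and -0.09 on the right.

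The gain was held by few genes. The 10 most abundant genes made up 24.1 to 28.3% of TPM in the preNeu libraries against 9.15 to 9.78% in the GMP libraries. The genes that made up the first 50% of TPM numbered 149 to 226 against 572 to 631. Of the summed gain of 446459 TPM, 55.9% lay in 10 genes: Ngp, Chil3, Lyz2, S100a8, Ltf, S100a9, Actb, Camp, Lcn2 and Hmgn2. The loss was spread more widely, with 15.2% in the 10 genes of largest loss, which were Mpo, Eef1a1, mt-Cytb, mt-Co1, Elane, mt-Atp6, mt-Nd1, Hspa8, Rplp0 and Rpl4. The most abundant gene was Mpo in each GMP library and Ngp in each preNeu library, at 3.15 to 3.34% and 5.78 to 8.27% of TPM.

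Granule protein genes moved in opposite directions by granule type. To show what lies upstream of the best-known genes of both granule types, the 150 bases before the RefSeq start of 3 secondary and 3 primary granule genes are printed 5′ to 3′ on the strand of the gene (GRCm38.p6). They lie at chr9:111019142-111019291 (plus strand), chr9:109849457-109849606 (minus), chr9:110419658-110419807 (plus), chr11:87793634-87793783 (plus), chr10:79886162-79886311 (plus) and chr10:79879517-79879666 (plus). Capitals mark matches on either strand to the letters TTGCNNAA, a short form of the motif that C/EBP factors bind.
Ltf: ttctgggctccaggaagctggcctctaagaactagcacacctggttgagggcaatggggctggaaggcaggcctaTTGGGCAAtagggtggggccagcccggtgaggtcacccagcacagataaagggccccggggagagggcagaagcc
Camp: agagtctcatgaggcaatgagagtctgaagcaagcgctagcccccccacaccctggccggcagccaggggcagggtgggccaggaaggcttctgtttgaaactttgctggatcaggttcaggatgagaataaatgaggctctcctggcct
Ngp: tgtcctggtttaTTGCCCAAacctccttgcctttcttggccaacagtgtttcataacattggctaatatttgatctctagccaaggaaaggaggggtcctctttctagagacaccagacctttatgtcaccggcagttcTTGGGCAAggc
Mpo: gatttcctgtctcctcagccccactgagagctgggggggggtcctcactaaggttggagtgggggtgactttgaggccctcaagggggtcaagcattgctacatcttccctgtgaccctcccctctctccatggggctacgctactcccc
Elane: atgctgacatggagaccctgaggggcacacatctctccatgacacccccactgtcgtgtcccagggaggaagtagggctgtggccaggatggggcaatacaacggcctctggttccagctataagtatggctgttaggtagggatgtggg
Prtn3: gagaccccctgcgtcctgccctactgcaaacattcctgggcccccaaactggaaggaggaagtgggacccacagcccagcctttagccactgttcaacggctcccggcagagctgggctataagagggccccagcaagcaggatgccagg
The Ngp stretch held 2 matches, the Ltf stretch 1, and those of Camp, Mpo, Elane and Prtn3 none. A match is a description of letters and not a measured binding site.

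Of 13 secondary granule genes 12 were tested and all 12 were called higher on both scales, with a median log2 change of 9.42 on TPM and 9.86 after rescaling. Ltf (ENSMUSG00000032496), which encodes the iron-binding protein lactoferrin, was at 7.94, 6.23 and 4.22 TPM in GMPs and at 23924, 24636 and 27605 TPM in preNeu, a log2 change of 11.83 ± 0.20 (SE, adjusted p = 9.12e-11). Ngp (ENSMUSG00000032484), neutrophilic granule protein, was at 12.6, 10.5 and 9.18 TPM against 82697, 73686 and 57803 TPM (12.56 ± 0.24, adjusted p = 1.38e-10). Camp (ENSMUSG00000038357), the precursor of the antimicrobial peptide cathelicidin, was at 1.99, 1.91 and 0.653 TPM against 12045, 9316 and 9261 TPM (12.02 ± 0.33). None of these groups overlapped, and their spread among libraries was small beside the difference. Lcn2, which encodes the siderophore-binding lipocalin, was at 10.5, 8.96 and 14.9 TPM against 10888, 8703 and 7087 TPM. Chil3, a chitinase-like protein, was at 61.9, 38.9 and 35.5 TPM against 41328, 37138 and 43422 TPM, although reads of near-identical Chil copies may have been split by the counting. The summed level of the list was 268-fold higher in preNeu, at 167512 ± 12995 TPM against 624 ± 91.6 TPM in GMPs (SD, n = 3 each), or 16.8% against 0.0624% of all TPM.

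Not all secondary granule genes followed the same course. Hp (haptoglobin), which binds free haemoglobin, was already at 543, 412 and 551 TPM in GMPs and reached 2930, 2843 and 2339 TPM, the smallest change of the list at 2.43 ± 0.14. Mmp8, neutrophil collagenase, was at 10.1, 5.07 and 8.57 TPM against 174, 206 and 234 TPM, far under its mean of 6602 TPM in matNeu. Ltf, Ngp and Camp were at means of 467, 2283 and 92.9 TPM in matNeu, below each of their preNeu libraries. Chil1, Cd177, Itgb2l and Olfm4 changed by 9.76, 9.35, 9.23 and 7.86. Ptx3, the long pentraxin, was listed at 0 in all 6 libraries.

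**Figure D2:**
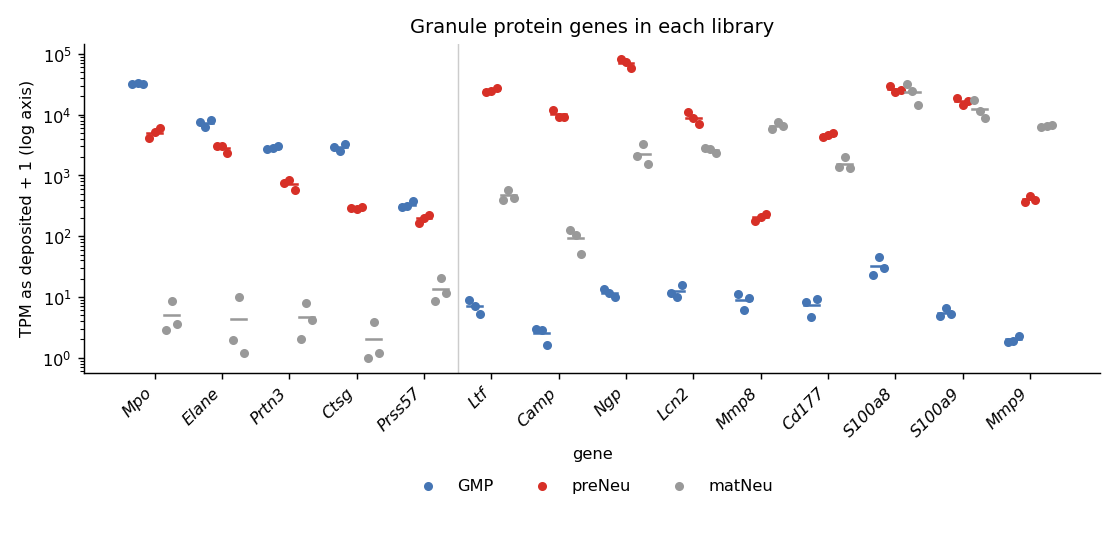
TPM as deposited + 1 (vertical log axis) of 14 granule protein genes (horizontal axis) in each library, 3 per cell type, with a bar at the mean; primary granule genes stand left of the vertical line. Mpo was at 31476 to 33396 TPM in GMPs and 4194 to 5938 TPM in preNeu, whereas Ngp was at 9.18 to 12.6 and 57803 to 82697 TPM.

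The primary granule list summed to 48098 ± 1071 TPM in GMPs and 11887 ± 537 TPM in preNeu, and of its 9 tested genes 6 were lower and 2 higher on TPM (median -1.78), 5 and 2 after rescaling (median -1.26). Mpo (ENSMUSG00000009350), myeloperoxidase, was at 31476, 33396 and 31975 TPM in GMPs and 4194, 5097 and 5938 TPM in preNeu, a change of -2.68 ± 0.32 (adjusted p = 5.14e-05). Ctsg, the serine protease cathepsin G, was at 2889, 2536 and 3234 TPM against 292, 281 and 296 TPM (-3.31 ± 0.40), and its rescaled call was lost with a pseudocount of 0.1 (-2.79, adjusted p = 0.0502). Prtn3 (ENSMUSG00000057729), proteinase 3, was at 2748, 2810 and 3034 TPM against 762, 836 and 575 TPM (-2.0 ± 0.38). The rescaled change of Prtn3 was -1.48 (adjusted p = 0.0139), and without preNeu library 3 it was -1.29 with an adjusted p of 0.0529. Elane (ENSMUSG00000020125), neutrophil elastase, did not pass the test at a change of -1.38 ± 0.59 (adjusted p = 0.0684). Its 6 values did not overlap, at 7461, 6173 and 8308 TPM in GMPs and 3026, 3088 and 2332 TPM in preNeu, and with only these 6 libraries in the fit its adjusted p was 4.71e-05. The members that rose were Cd63, a granule membrane tetraspanin (1.29), and Serpinb1a, an inhibitor of these serine proteases (510, 499 and 443 TPM against 1796, 1870 and 1819 TPM, 1.92 ± 0.19). In matNeu the means of Mpo, Elane, Prtn3 and Ctsg were 4.05, 3.41, 3.7 and 1.01 TPM.

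Tertiary granule and secretory vesicle genes were higher in 8 of 10 tested on TPM (median 4.78) and in 9 of 10 after rescaling (median 5.07), with none lower. Mmp9, gelatinase B, was at 0.852, 0.87 and 1.3 TPM in GMPs and 359, 459 and 387 TPM in preNeu (7.65 ± 0.13). Itgam and Itgb2, the chains of the integrin Mac-1, changed by 5.17 and 4.53. Since preNeu were gated on Mac-1, the rise of Itgam was not independent of the sort. Fpr2, a formyl peptide receptor, was listed at 0 in all 3 GMP libraries and was at 93.5, 93.4 and 73.4 TPM in preNeu. For several of these genes the preNeu level was far from that of matNeu, where Mmp9 and Fpr1 had means of 6539 and 2045 TPM. The markers of mature neutrophils were the extreme case: 6 of 9 were called higher on TPM and 7 after rescaling, yet their sum was 60.6 ± 4.39 TPM in GMPs, 766 ± 10 TPM in preNeu and 22194 ± 2225 TPM in matNeu.

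Other secreted and cytosolic defence families were uneven, beside shares of all tested genes of 44.3% lower and 14.7% higher on TPM. After rescaling those shares were 28.2% and 23.2%. The calcium-binding alarmins S100a8 and S100a9 changed by 9.71 ± 0.29 and 11.56 ± 0.22, S100a9 from 3.83, 5.48 and 4.27 TPM to 18831, 14646 and 16581 TPM, while S100a10 fell by 4.46 on the log2 scale. In all 6 of 10 tested S100 genes were higher and 1 lower on either scale. Lyz2, lysozyme, was at 1088, 613 and 765 TPM against 35691, 29738 and 29242 TPM (5.30 ± 0.19), with the caution that Lyz1 is a near copy. Among annexins 4 of 9 were higher and 4 lower on TPM, 5 and 4 after rescaling: Anxa1, which binds phospholipids and restrains inflammation, was at 496, 418 and 454 TPM against 6761, 7269 and 6710 TPM, and Anxa6 fell by 3.48 on the log2 scale. Serpins split as well, with 4 of 12 higher and 6 lower on TPM, 4 and 5 after rescaling. Serpinb10 changed by 3.26, and Serpinf1, a secreted anti-angiogenic factor, went from 137, 112 and 105 TPM to 0.557, 0.392 and 0 TPM. Of the whey acidic protein antiproteases 1 of 4 was called, Wfdc21, at 1.3, 5.58 and 1.7 TPM against 550, 474 and 480 TPM. The stefin A cluster stayed low, with 1 of 6 called (Stfa1, 1.78), and sums of 0 to 0.13 TPM in GMPs against 2.41 to 6.3 TPM in preNeu. Its copies are nearly identical.

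Most genes for killing and for movement were higher. All 8 tested NADPH oxidase genes, whose products make superoxide, were higher on both scales (medians 2.33 and 2.84). Cybb, the catalytic subunit, was at 98.6, 81.5 and 61.3 TPM against 1838, 1886 and 2171 TPM (4.62 ± 0.18). Rac1, the GTPase of the complex, was spread in GMPs at 33.9, 77.1 and 425 TPM against 494, 495 and 511 TPM, so its change of 2.25 carried an SE of 0.74 (adjusted p = 0.0227). Without GMP library 1, 2 or any preNeu library the call of Rac1 on TPM was lost (changes of 1.46 to 2.26, adjusted p = 0.0516 to 0.0744), and after rescaling it was kept in each case. Of 28 genes of actin and migration machinery 24 were higher on TPM and 27 after rescaling, with none lower (medians 0.95 and 1.47), and their share of TPM was 1.85% in GMPs and 4.13% in preNeu. Gsn, the actin-severing gelsolin, was at 15.3, 15 and 23.3 TPM against 699, 757 and 914 TPM (5.40 ± 0.18). Vcl, vinculin, changed by 3.54. Actb was at 4872, 4295 and 4758 TPM against 16019, 15863 and 14046 TPM (1.72 ± 0.13), so that a gene often used to normalise moved with the stage. Of 12 genes of eicosanoid synthesis 7 were higher and 1 lower on TPM, 8 and 0 after rescaling, led by Alox5, 5-lipoxygenase, at 28.3, 20.3 and 21.5 TPM against 361, 369 and 425 TPM.

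Surface receptors changed in both directions. The shares of all tested genes to set beside them were 44.3% lower and 14.7% higher on TPM, and 28.2% and 23.2% after rescaling. Of 14 chemoattractant receptors 8 were higher and 3 lower on TPM, 8 and 2 after rescaling. Ccr2, the receptor that draws monocytes out of the marrow, was at 154, 110 and 118 TPM against 5.41, 2.52 and 2.9 TPM (-4.83 ± 0.29). Cxcr2, a neutrophil chemokine receptor, was at 8.17, 7.65 and 11.9 TPM against 64.7, 93.4 and 70.9 TPM (2.92 ± 0.19). Cxcr4, which holds neutrophils in the marrow and is part of the preNeu gate, was at 49.2, 58.7 and 55.7 TPM against 38.6, 40.4 and 44.7 TPM. Its call depended on the scale and on single libraries: the change was -0.39 (adjusted p = 0.0371) on TPM and 0.11 (adjusted p = 0.488) after rescaling, and without GMP library 2 or 3 or preNeu library 1 or 2 the adjusted p on TPM was 0.0914 to 0.123. Among phagocytosis and Fc receptors 5 of 11 were higher and 3 lower on TPM, 6 and 2 after rescaling. C5ar1, the receptor of the complement fragment C5a, changed by 7.57 ± 0.36, Fcgr4 by 3.37, Cd93 by -3.49 and Clec7a, a fungal beta-glucan receptor, by -2.04. Adhesion molecules showed 5 of 15 higher and 6 lower on TPM, 6 and 5 after rescaling, with Ceacam1 at 42.5, 46.9 and 41.1 TPM against 908, 987 and 988 TPM and Pecam1 lower by a change of -2.75.

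Cytokine receptors were lower in 12 of 22 and higher in 4 on TPM, and lower in 8 and higher in 9 after rescaling. For this and the lists below, the shares of all tested genes were 44.3% lower and 14.7% higher on TPM. After rescaling they were 28.2% and 23.2%. Csf1r, the receptor of the monocyte growth factor M-CSF, was at 232, 192 and 188 TPM against 8.22, 10.9 and 22.3 TPM (-3.90 ± 0.29). Csf3r, the receptor of G-CSF, differed far less, at 132, 131 and 142 TPM against 191, 201 and 225 TPM (0.60 ± 0.12, adjusted p = 0.00137), while its mean in matNeu was 3874 TPM. Il6st, the shared signalling chain gp130, changed by -4.61, and Il1r2, a decoy receptor for interleukin-1, by 5.95. Paired receptors, which carry inhibitory or activating tails, were higher in 22 and lower in 9 of 48 on TPM (28 and 6 after rescaling). Cd300lf was at 1.07, 0.408 and 2.29 TPM against 146, 166 and 205 TPM, Lilr4b changed by 5.53 and Trem2 by -2.87. Members of the Clec4a and Sirpb1 clusters share sequence, and their values are uncertain. Toll-like receptor and inflammasome genes were higher in 5 and lower in 5 of 17 on TPM, 6 and 4 after rescaling (Tlr13 2.82, Nlrp3 -1.79).

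Transcription factor genes of the granulocyte list were mostly higher, and those of the stem and progenitor list mostly lower. Among all tested genes 14.7% were higher and 44.3% lower on TPM, and 23.2% and 28.2% after rescaling. Of 14 factors of the granulocyte lineage 9 were higher and 3 lower on TPM (median 1.70), 10 and 1 after rescaling (median 2.15). Cebpe, the factor of terminal granulocyte differentiation, was at 16.2, 28.9 and 48.5 TPM in GMPs and 551, 588 and 437 TPM in preNeu (4.15 ± 0.32, adjusted p = 2.43e-06). Gfi1 was at 8.01, 5.88 and 17.5 TPM against 20.1, 23.2 and 29.2 TPM (1.25 ± 0.35, adjusted p = 0.0108), and its mean in matNeu was 0.0482 TPM. That is RNA only: a western blot of the study found more GFI1 protein in matNeu than in preNeu. From GFP in Gfi1:GFP knock-in mice the study also reports that the gene is expressed, with an active promoter, in these cell types. With a pseudocount of 0.1 the call of Gfi1 on TPM was lost (1.34, adjusted p = 0.0557). Cebpa, which acts before Cebpe, was at 17.5, 20.1 and 23.6 TPM against 5.36, 4.24 and 6.68 TPM (-1.74 ± 0.27). Klf5, a zinc finger factor, changed by 5.68 and Mxd1, which competes with MYC for its partner MAX, went from 9.5, 14.3 and 10.4 TPM to 192, 239 and 265 TPM. Cebpb did not pass the test (2.55 ± 1.08, adjusted p = 0.0651), although without preNeu library 3 it did on TPM (3.19, adjusted p = 0.0473).

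Stem and progenitor factors were lower in 14 of 20 and higher in 3 on TPM (median -2.15), 12 and 4 after rescaling (median -1.69). Myc was at 386, 462 and 438 TPM against 17.2, 26.3 and 31.4 TPM (-4.09 ± 0.23). Meis1 was at 32.5, 33.9 and 32.4 TPM against 0.0764, 0.812 and 0 TPM, its partner Hoxa9 changed by -3.92, and Gata2 by -2.77. The exceptions included Hlf (0.79) and Erg (1.11, adjusted p = 0.0286). The call of Erg on TPM was lost without GMP library 1 (0.91, adjusted p = 0.096) or any preNeu library (adjusted p = 0.0641 to 0.0679). That of Hlf was lost without GMP library 1 or 2 or preNeu library 2 or 3 (adjusted p = 0.0583 to 0.128). Of 10 tested monocyte and dendritic cell factors 5 were lower and 3 higher on either scale. On TPM the lower count was near the 44.3% of all tested genes, of which 14.7% were higher. Irf8, which directs monocyte and dendritic cell fates, was at 548, 509 and 483 TPM against 10.8, 12.7 and 13.9 TPM (-5.26 ± 0.30), and Zeb2 at 160, 142 and 134 TPM against 4.59, 6.78 and 7.41 TPM (-4.35 ± 0.21). In the same list Id2, an inhibitor of helix-loop-helix factors, moved the other way, from 11.3, 7.25 and 9.4 TPM to 396, 415 and 386 TPM (5.29 ± 0.16). The AP-1 and KLF families were mixed at 8 of 23 higher and 10 lower on TPM, 9 and 6 after rescaling, with Klf6 at 2.58, and their median changed sign with the scale (-0.03 and 0.08).

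**Figure D3:**
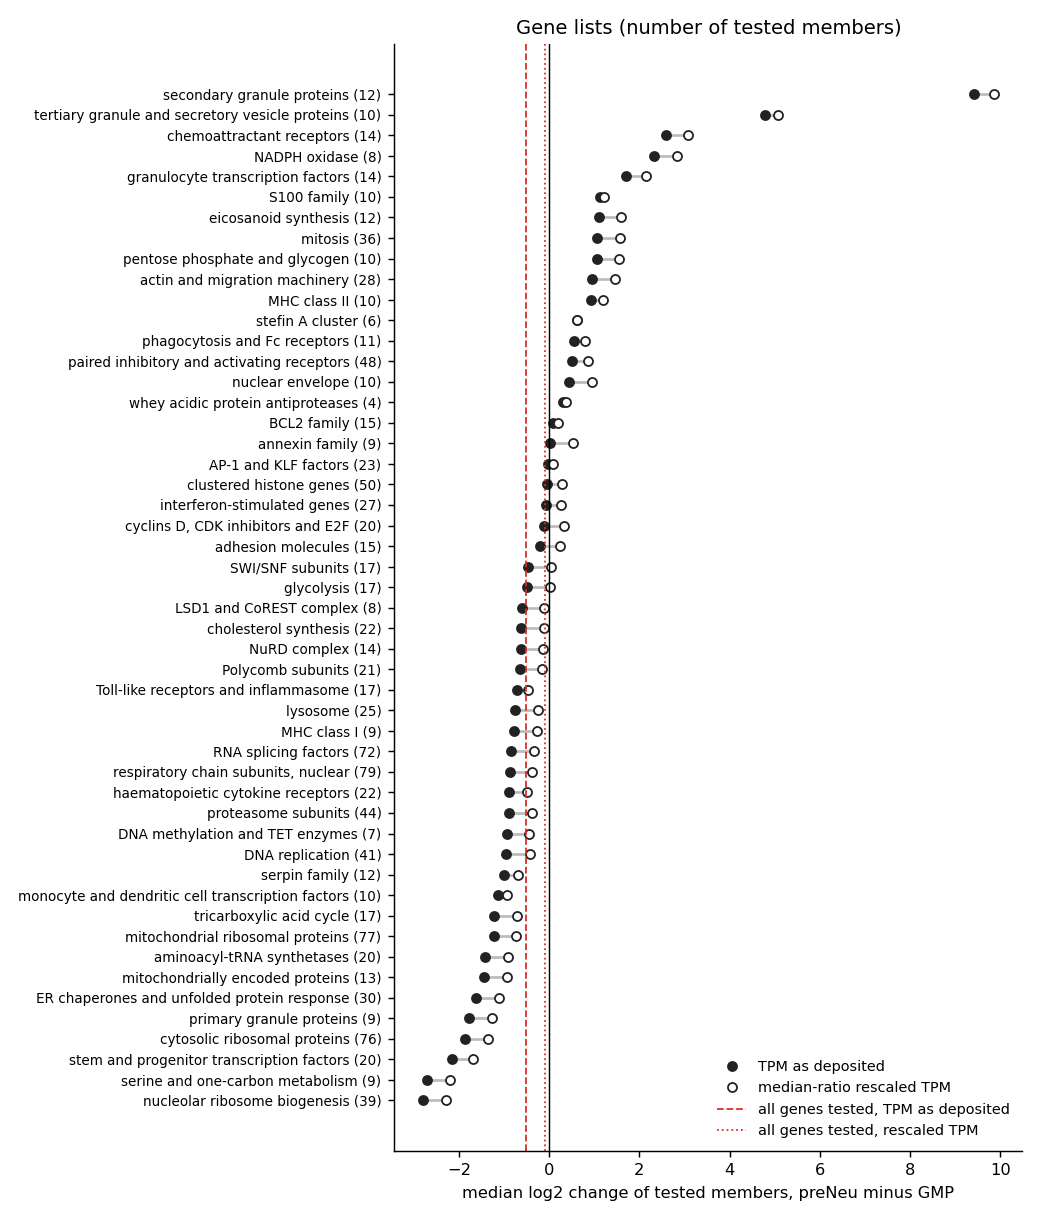
Median log2 change from GMP to preNeu (horizontal axis) of the tested members of each gene list (vertical axis, number of members in brackets), on TPM as deposited (filled) and rescaled TPM (open). Secondary granule proteins stood furthest right at 9.42 and 9.86, nucleolar ribosome biogenesis furthest left at -2.80 and -2.29, and the red lines mark the medians of all tested genes, -0.52 (dashed) and -0.09 (dotted).

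Chromatin genes moved less than the lineage factors and their counts hung on the scale. NuRD subunits were lower in 7 and higher in 1 of 14 on TPM, 5 and 2 after rescaling. For the LSD1 and CoREST complex the counts were 3 lower and 0 higher of 8 on TPM, against 1 and 2 after rescaling, for SWI/SNF 8 and 2 of 17 against 3 and 5, and for Polycomb 9 and 1 of 21 against 5 and 3. These small counts moved with single libraries: after rescaling 3 NuRD subunits were lower without GMP library 1 or 2, and 3 Polycomb subunits without GMP library 1. Of all tested genes 44.3% were lower and 14.7% higher on TPM, and 28.2% and 23.2% after rescaling. The counts of the complexes are therefore not read as a fall of their own. A few members stood apart, among them Chd3, a NuRD helicase (-3.43), and Cbx6, a Polycomb reader (-3.33). DNA methylation and TET enzymes were lower in 6 of 7 on TPM and 2 after rescaling, or 1 without GMP library 2 or preNeu library 1, so the rescaled share is near that of all tested genes. Dnmt3b, a de novo methyltransferase, was at 26, 47.5 and 38.7 TPM against 0.155, 1.82 and 1.36 TPM (-4.24 ± 0.37). Nuclear envelope genes went the other way, with 5 of 10 higher and 2 lower on TPM, 7 and 0 after rescaling. Syne1, a giant nesprin that ties the nucleus to the cytoskeleton, was at 9.8, 7.98 and 9.19 TPM against 174, 208 and 230 TPM (4.35 ± 0.15), and Syne2 changed by 4.07. Lbr, the lamin B receptor needed for nuclear segmentation, was at 391, 330 and 346 TPM against 631, 603 and 830 TPM (0.94 ± 0.13). Clustered histone genes, which share sequence and mostly lack poly(A) tails, were higher in 6 and lower in 9 of 50 on TPM, 9 and 5 after rescaling. Leaving out 1 library gave 2 to 7 higher and 5 to 8 lower on TPM, with 2 higher without GMP library 1 or preNeu library 1. After rescaling it gave 5 to 9 higher, the fewest without the same libraries, and 2 to 7 lower, with 2 without GMP library 3.

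Cell cycle genes split by phase. Mitosis genes were higher in 31 of 36 on TPM (median 1.07) and 35 of 36 after rescaling (median 1.58), with none lower, and their share of TPM was 0.466% in GMPs and 1.01% in preNeu. Mki67, the proliferation antigen Ki-67, was at 72.4, 73.2 and 64.3 TPM against 186, 194 and 238 TPM (1.54 ± 0.18, adjusted p = 4.69e-05). Spc25, a kinetochore protein, was at 126, 121 and 122 TPM against 537, 554 and 538 TPM (2.13 ± 0.36). DNA replication genes were lower in 30 of 41 on TPM with none higher (median -0.95), and lower in 16 and higher in 4 after rescaling (median -0.43), where only 1 stayed higher without GMP library 3. After rescaling 21 of them were not called. Among all tested genes 44.3% were lower and 14.7% higher on TPM, and 28.2% and 23.2% after rescaling. Mcm2, of the replicative helicase, was at 341, 347 and 298 TPM against 103, 116 and 135 TPM (-1.48 ± 0.28), and its rescaled call was lost with a pseudocount of 0.1 (-0.97, adjusted p = 0.0607). Pold2, a subunit of DNA polymerase delta, was at 207, 205 and 201 TPM against 33, 29.8 and 30.4 TPM (-2.68 ± 0.29). Pcna, the sliding clamp, was lower on TPM only (-0.63, against -0.11 after rescaling). Rrm2 of the same list was called higher after rescaling only. It lost that call when any single GMP or preNeu library was left out (adjusted p = 0.0631 to 0.0787). In matNeu the sums of both lists were low, at 223 TPM for mitosis and 446 TPM for replication.

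The genes that drive entry into the cycle exchanged members. Ccnd2 was at 214, 174 and 281 TPM against 15.7, 7.69 and 9.52 TPM (-4.26 ± 0.24), whereas Ccnd3, another D-type cyclin, was at 336, 354 and 353 TPM against 1618, 1782 and 1885 TPM (2.34 ± 0.12). Their kinases were lower, Cdk4 at 1351, 1157 and 1401 TPM against 152, 121 and 160 TPM (-3.17 ± 0.18) and Cdk6 at 168, 164 and 170 TPM against 24.5, 30.5 and 18.7 TPM (-2.75 ± 0.20). The inhibitor gene Cdkn2d was at 45.6, 30.8 and 43.7 TPM against 505, 480 and 333 TPM (3.42 ± 0.21). Over the whole list 8 of 20 were higher and 6 lower on TPM, 9 and 4 after rescaling, and the median changed sign with the scale (-0.12 and 0.34). Of BCL2 family genes 4 of 15 were higher and 5 lower on TPM, 4 and 3 after rescaling, with the survival gene Bcl2 at 30, 28.9 and 25.1 TPM against 1.19, 0.869 and 3.18 TPM and Mcl1 slightly higher (0.75). Without GMP library 2 or preNeu library 3 the count of higher BCL2 family genes on TPM was 2. Beside both lists, 44.3% of all tested genes were lower and 14.7% higher on TPM, and 28.2% and 23.2% after rescaling.

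Genes for making proteins were lower nearly throughout. All 76 cytosolic ribosomal protein genes were lower on TPM (median -1.86) and 71 after rescaling (median -1.35), and their summed level was 42998 ± 3983 TPM in GMPs and 11144 ± 1076 TPM in preNeu. All 39 nucleolar ribosome biogenesis genes were lower on both scales (medians -2.80 and -2.29), with a sum of 8952 ± 95.7 TPM against 1203 ± 97.7 TPM. Npm1, nucleophosmin, was at 2779, 2441 and 2612 TPM against 217, 229 and 227 TPM (-3.53 ± 0.13), and Gnl3, nucleostemin, at 253, 236 and 230 TPM against 7.16, 13.6 and 14.1 TPM (-4.31 ± 0.25). The translation elongation factor gene Eef1a1 was at 11444, 12295 and 11233 TPM against 2365, 2543 and 2882 TPM (-2.17 ± 0.15). Mitochondrial ribosomal proteins were lower in 70 of 77 on TPM and 40 after rescaling, and aminoacyl-tRNA synthetases in 18 of 20 and 16, with none higher in either list. Of 9 genes of serine and one-carbon metabolism 7 were lower and 1 higher on both scales. Phgdh, the first enzyme of serine synthesis, was at 838, 925 and 876 TPM against 23.6, 34.2 and 40 TPM (-4.74 ± 0.24), and Shmt2 changed by -3.43. The exception was Mthfd2, a folate enzyme of mitochondria, at 69.4, 62.8 and 58.5 TPM against 98.5, 109 and 103 TPM (0.70, adjusted p = 0.0306). Its call on TPM was lost without GMP library 2 or 3 or any preNeu library (adjusted p = 0.0594 to 0.0839).

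**Figure D4:**
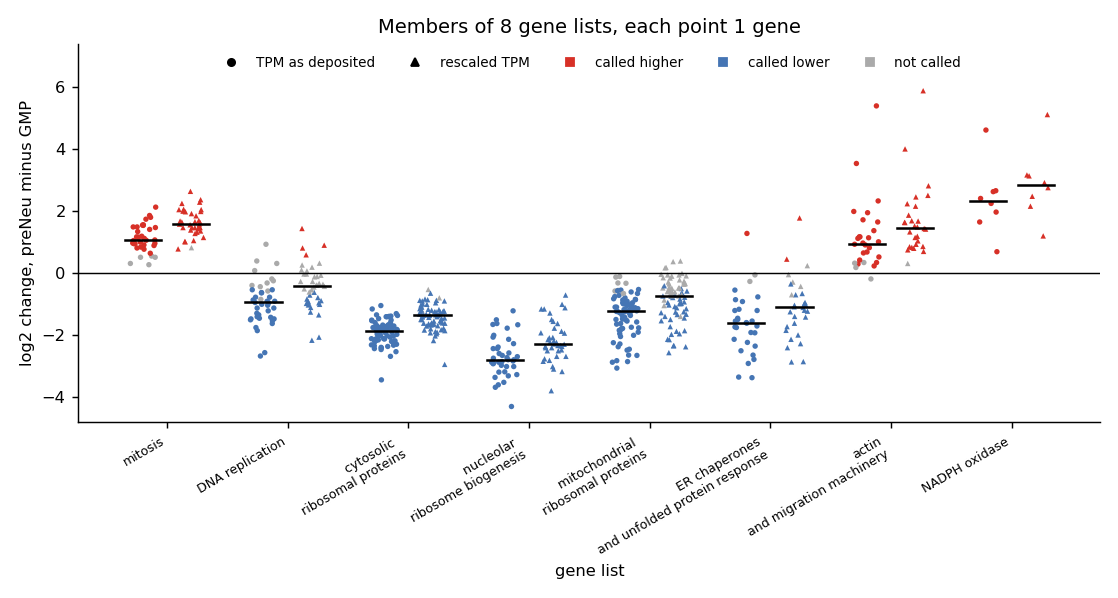
Log2 change from GMP to preNeu (vertical axis) of each tested member of 8 gene lists (horizontal axis), circles for TPM as deposited and triangles for rescaled TPM, with a bar at each median. All 39 nucleolar genes lay below 0 on both scales, and 31 of 36 mitosis genes were called higher on TPM (red).

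Protein folding and turnover followed. Endoplasmic reticulum (ER) chaperone and unfolded protein response genes were lower in 27 of 30 on TPM (median -1.61) and 23 after rescaling (median -1.10). Calr, the calcium-binding chaperone calreticulin, was at 1991, 2254 and 1959 TPM against 163, 200 and 235 TPM (-3.38 ± 0.17), and Hspa5, the chaperone BiP, at 1879, 2092 and 1913 TPM against 365, 444 and 540 TPM (-2.14 ± 0.14). Edem1, which marks misfolded proteins for disposal, was the only member called higher on TPM (1.28). Xbp1, a factor of this response, was at 487, 453 and 457 TPM against 381, 460 and 505 TPM and was not called on TPM (-0.06). Its rescaled change of 0.45 (adjusted p = 0.0164) lost the call without GMP library 2 or 3 or preNeu library 3 (adjusted p = 0.0511 to 0.0561). Proteasome subunits were lower in 39 of 44 on TPM and 18 after rescaling, and RNA splicing factors in 52 of 72 and 28, with 2 and 7 higher (Hnrnpa1 -2.20, Hnrnpll 1.41). Over all tested genes 44.3% were lower on TPM and 28.2% after rescaling. The rescaled medians were -0.37 for proteasome subunits and -0.34 for splicing factors, against -0.09 over all tested genes, so much of the fall on TPM depended on the scale. Leaving out 1 library gave 16 to 23 splicing factors lower after rescaling, the fewest without preNeu library 2. The higher count was then 1 to 3 on TPM, with 1 without any library but GMP library 3, and 4 to 7 after rescaling, with 4 without GMP library 1 or preNeu library 1. Among 138 symbol families of at least 10 tested genes, the lowest medians on TPM were those of Eef (-2.17), Fkbp (-2.01), Ms (-1.90), Rpl (-1.76) and Rps (-1.60). The Rpl and Rps families hold pseudogenes whose reads cannot be told from those of the parent genes. The highest medians on TPM were those of Ighv (1.68), S (0.71), Klf (0.65), Igkv (0.56) and Kif (0.48), the last of these the kinesin motors. After rescaling the 5 highest were Ighv (1.65), Klf (1.14), Kif (0.95), S (0.92) and Ly (0.90).

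Mitochondrially encoded and tricarboxylic acid cycle genes were mostly lower, while routes of glucose use were mixed. Of 13 mitochondrially encoded protein genes 11 were lower on TPM and 10 after rescaling (medians -1.44 and -0.93), and their share of TPM was 4.11% in GMPs and 1.66% in preNeu. mt-Cytb, a subunit of respiratory complex III, was at 9095, 6279 and 7857 TPM against 2686, 2564 and 1991 TPM (-1.68 ± 0.18). Nuclear respiratory chain subunits were lower in 47 of 79 and higher in 1 on TPM (median -0.87), 22 and 2 after rescaling (median -0.38), the latter a share near the 28.2% of all tested genes. Tricarboxylic acid cycle genes were lower in 16 of 17 on TPM and 11 after rescaling. Idh2, the mitochondrial isocitrate dehydrogenase, was at 761, 795 and 782 TPM against 43.7, 58.4 and 59.3 TPM (-3.85 ± 0.18). Glycolysis genes were higher in 5 and lower in 9 of 17 on TPM, 7 and 5 after rescaling, and without GMP library 1 or 3 or preNeu library 2 the 5 became 3. Among all tested genes 14.7% were higher and 44.3% lower on TPM, and 23.2% and 28.2% after rescaling. Within the glycolysis list Slc2a3, the glucose transporter GLUT3, was at 12.5, 22 and 14.8 TPM against 147, 142 and 152 TPM (3.13 ± 0.18), and Pfkm, a phosphofructokinase, changed by -3.08. Pentose phosphate and glycogen genes were higher in 8 of 10 on both scales (medians 1.07 and 1.56). Pygl, glycogen phosphorylase, was at 122, 129 and 100 TPM against 720, 784 and 825 TPM (2.72 ± 0.12). G6pdx, which makes the NADPH that the oxidase uses, was at 239, 269 and 235 TPM against 644, 734 and 787 TPM (1.54 ± 0.12).

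Markers of other blood cells moved with the comparison, and their part in the results was not tested. For the counts here and in the next paragraph, the shares of all tested genes were 44.3% lower and 14.7% higher on TPM. After rescaling they were 28.2% and 23.2%. Of 12 monocyte and dendritic cell markers 9 were lower and 1 higher on either scale, and their sum was 1989 to 2389 TPM in GMPs and 47.2 to 80.4 TPM in preNeu. F13a1, coagulation factor XIII, was at 1005, 893 and 821 TPM against 9.7, 10.3 and 20 TPM (-6.05 ± 0.32). Of 18 tested eosinophil, basophil and mast cell markers 11 were lower and 2 higher on TPM and 10 lower after rescaling (6 without GMP library 2 or 3), with a sum of 1878 to 2049 TPM against 720 to 896 TPM. Prg2, eosinophil major basic protein, was at 744, 863 and 671 TPM against 16.5, 17.5 and 14.2 TPM, whereas the basophil protease Mcpt8 was not called, at 117, 86.6 and 88.5 TPM against 102, 55.3 and 71.5 TPM. Megakaryocyte markers were lower in 4 and higher in 1 of 7 (1 lower after rescaling without GMP library 2 or 3), summing to 41.4 to 56.9 TPM against 6.62 to 10.9 TPM. Erythroid markers were lower in 3 (1 after rescaling without GMP library 2 or 3) and higher in 2 of 9, at 47.6 to 60.6 TPM against 25.1 to 55.7 TPM.

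Macrophage markers were higher in 9 of 11 tested with none lower, and their sum was 49.3 to 54.8 TPM in GMPs and 278 to 417 TPM in preNeu. C1qa, a chain of the first complement component, was at 0.318, 1.85 and 2.09 TPM against 23.9, 22.7 and 28.1 TPM (3.51 ± 0.32), and Vcam1, a vascular adhesion molecule that marrow macrophages carry, at 22, 27.9 and 24.7 TPM against 149, 173 and 236 TPM. The B cell markers were higher in 5 (3 without GMP library 2 or preNeu library 2) and lower in 3 of 11, with a sum of 546 to 663 TPM against 275 to 336 TPM. Igkc, the kappa light chain, was listed at 0 in all GMP libraries and was at 21.1, 30.9 and 29.2 TPM in preNeu. Ighm ran the other way, at 563, 461 and 492 TPM against 242, 279 and 279 TPM (-0.92 ± 0.11). Variable heavy chain genes (Ighv), near copies of each other, were higher in 19 of 43 and lower in none. T and NK cell markers were lower in 3 (1 without GMP library 1 or 3) and higher in 0 of 6 tested on TPM, and Cd3e was listed at 0 in GMPs. MHC class II genes split into 6 higher, among them Cd74, the invariant chain (9.36, 4.74 and 5.93 TPM against 79.8, 88.8 and 80.3 TPM), and 4 lower, among them H2-DMa (153, 99.3 and 132 TPM against 12, 11.6 and 9.79 TPM).

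Some genes went from near absence to clear expression or back. Under 1 TPM in all GMP libraries and at least 10 TPM in all preNeu libraries were 43 genes, and 40 showed the reverse. With the same limits on rescaled TPM the counts were 55 and 21. The 5 of highest level among the first were Olfm4, Fgr, Olfml2b, Inhba and Sept5. Fgr, a SRC-family kinase of myeloid cells, was at 0.93, 0.846 and 0.635 TPM against 216, 254 and 258 TPM. Inhba, which encodes the activin A subunit, was at 0.783, 0.101 and 0.119 TPM against 185, 236 and 201 TPM and was at a mean of 2.47 TPM in matNeu, so it was high in preNeu beside both other cell types. The reverse group was led by Serpinf1, Ighj2, Prg3, Tctex1d1 and Meis1, with the eosinophil protein gene Prg3 at 44, 55.2 and 47.8 TPM against 0.758, 0.835 and 0 TPM. Among genes with large rises outside the granule lists were St3gal5, the sialyltransferase that makes ganglioside GM3 (8.61), and Plbd1, a phospholipase B-like protein (2.41, 2.39 and 2.18 TPM against 971, 931 and 1047 TPM, 8.21 ± 0.11). Large falls after Cd34 (-7.24) included Bex6 (-6.58), Ass1, an enzyme of arginine synthesis (-5.68), the chemokine Ccl9 (-5.63), Ms4a6c (-5.62) and the co-stimulatory receptor Cd27 (-5.50).

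Peaks of H3K4me2, a histone mark of promoters and enhancers, and of the NuRD helicase CHD4 were a readout that the expression comparison did not use. Each came from a single ChIP-seq library, so shares were described with 95% Wilson intervals, which cover counting error only, and were not tested. The H3K4me2 library titled preNeu is also entered as GMP. Genes called with a change of at least 2-fold on rescaled TPM (1951 or 14.9% higher, 2640 or 20.2% lower) gave 1845 protein-coding promoters in the higher class and 2533 in the lower, with 7500 others. An H3K4me2 peak in GMPs lay at 85.3% (83.6 to 86.8) of higher, 90.4% (89.2 to 91.5) of lower and 85.7% (84.9 to 86.4) of other promoters. With peaks of a −log10 q of at least 5 the GMP shares were 41.2% of higher, 41.2% of lower and 33.8% of other promoters, so the difference between higher and lower genes was gone. In preNeu the shares over all listed peaks were 90.9%, 91.5% and 88.1%. A peak in preNeu but not GMPs stood at 6.61% (5.57 to 7.84) of higher promoters, against 2.61% (2.05 to 3.3) of lower and 3.44% (3.05 to 3.88) of other ones. CHD4 peaks of GMPs lay at 22.0% (20.1 to 23.9) of higher promoters, 12.8% (11.5 to 14.1) of lower and 10.7% of other ones.

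**Figure D5:**
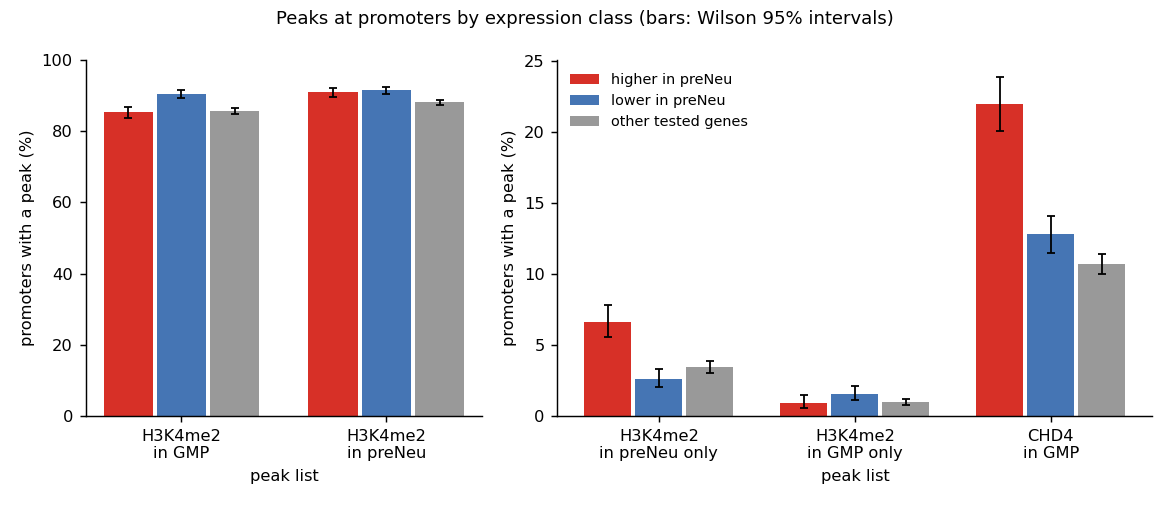
Share of promoters with a peak (vertical axis, %) for each peak list (horizontal axis) in genes higher in preNeu, lower in preNeu and other tested genes, with 95% Wilson intervals as error bars. Of higher promoters 6.61% had an H3K4me2 peak in preNeu only and 22.0% a CHD4 peak in GMPs, against 2.61% and 12.8% of lower promoters.

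By function, H3K4me2 peaks were listed at 3 of 12 secondary granule promoters in GMPs (Hp, Lcn2 and Mmp8) and at 10 of 12 in preNeu, without Olfm4 and Pglyrp1. Promoters of Ltf, Ngp and Camp had none in GMPs and a peak in preNeu, and those of Mpo and Elane had one at both stages. Tertiary granule promoters went from 6 to 10 of 10 and mature neutrophil markers from 4 to 8 of 9, including Mmp9. Primary granule promoters were at 8 of 9 at both stages. Monocyte and dendritic cell markers went from 11 to 8 of 12, and the Irf8 promoter had a peak in GMPs and none in preNeu. The 2 lists differ in strength, since a −log10 q of at least 5 kept 7076 of 37643 peaks in GMPs and 28748 of 49578 in preNeu, and a promoter without a listed peak in GMPs may still carry the mark.

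Motif letters were counted in 300-base RefSeq promoters on both strands, with shares given for 1443 higher, 2005 lower and 5850 other genes and for all 27025 promoters. TTGCNNAA (C/EBP) was in 10.2%, 8.73%, 8.31% and 10.8%, and GAGGAAGT (PU.1) in 4.37%, 3.59%, 3.11% and 3.28%. CACGTG, the E-box that MYC and other helix-loop-helix factors bind, was in 9.08%, 13.1%, 9.57% and 7.24%. GGGCGG (GC box) was in 64.7%, 60.8%, 63.1% and 35.9%, and the GC content of the classes was 61.3%, 59.3%, 60.7% and 52.7%. Tested genes thus differed in base composition from all promoters, while the 3 tested classes were close to each other. Among granule lists the C/EBP letters were in 5 of 12 secondary, 0 of 8 primary and 1 of 8 tertiary promoters.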

How the data were processed

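RNA-seq values were deposited by the authors as 1 TPM per gene and library, 9 libraries in 1 table. The submitters' processing notes list kallisto 0.44.0, Trimmomatic 0.36, FastQC 0.11.5, MultiQC 1.6, BWA 0.7.17, MACS2 2.1.0 and mm10, while the study's methods describe another aligner and counter, so which of them gave the TPM, and whether strand was used in counting, is not given in the sources used here. TPM keeps no sequencing depth, so counting error is unknown. Peak lists carry, as deposited, fold enrichment and −log10 q-values of 1 ChIP-seq library each. Only their positions and the −log10 q-values were used.

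Groups follow the sample titles. A gene was tested where 3 or more of the 9 libraries reached 1 TPM (13061 genes), with limma 3.58.1 in R 4.3.3 (lmFit, eBayes with trend) on log2(TPM + 1), with cell type as the only term over GMP, preNeu and matNeu, two-sided, with Benjamini-Hochberg adjustment over all tested genes. The same fit was run after division by median-ratio factors (11064 genes above 0 in all 9 libraries), whose range was 1.41 to 1.44 (GMP), 0.915 to 1.05 (preNeu) and 0.733 to 0.803 (matNeu). No 2 libraries held identical values, and the lowest correlation within GMPs or preNeu was 0.962. Scripts were checked on simulated data. Promoters reached from 2000 bases before to 500 after GENCODE gene starts (mm10) and counted with an overlap of at least 1 base. Motif letters were read from RefSeq promoters (250 bases before to 50 after the start). Figures and counts used Python 3.11.15, numpy 2.4.6, pandas 2.3.3, scipy 1.17.1 and matplotlib 3.10.9.

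The comparison and the 60 gene lists were chosen with earlier results of these data known, and lists were described by counts and medians, with no test of a list. Genes were named by rule: the first 3 of each list and its 2 largest called rises and falls, the 15 largest rises and falls called on both scales without overlap at a mean of at least 10 TPM, the 10 largest gains and losses of mean TPM, and the 5 of highest level switched on or off. Named outside the rule, after their values were seen, were Ccnd3, Ceacam1, Cebpb, Fpr1, Hlf, Hp, Ighm, Igkc, Lyz1, Mmp8, Pglyrp1, Ptx3 and Rac1. Where a symbol had 2 gene identifiers, the more abundant was used. Alternatives were another pseudocount, filters, scalings, the 6 libraries alone, a replicate block, no variance trend, a minimum change, and each library left out. All per-sample columns were used. The peak lists of GFI1, H3K4me3, ATAC-seq, matNeu H3K4me2 and Gfi1-/- CHD4 were not used here. Not all of the 334 genes that the rule names are described here.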

Additional observations from a re-analysis of the deposited data

How the results depend on the processing

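Upper-quartile scaling moved the counts on TPM most, to 2949 genes higher and 3761 lower. Among named genes called in the main fit it turned the direction of Cxcr4 (0.09), Hnrnpa2b1 (0.12), Pgls (0.02) and Psma2 (0.02), all with an adjusted p above 0.4 there. A minimum log2 change of 1 left 1276 genes higher on TPM and 1951 after rescaling. Leaving out 1 library at a time gave 1655 to 1832 higher and 4751 to 5494 lower on TPM, and 2647 to 2732 and 2828 to 3354 after rescaling, over fewer tested genes. The other settings stayed within 1.5 times, for example 2637 higher and 4362 lower without the most abundant genes. Of 4434 values of named genes on TPM across settings, 4241 kept the call or its absence, 143 lost it and 46 gained it. In 4 values a gene called in the main fit turned direction. A change of sign in a gene not called in the main fit was not counted as a turn. After rescaling the counts were 4318, 84, 32 and 0. Rescaled limits cut the genes switched off to 21. Same-numbered GMP and preNeu libraries did not deviate together (correlations of -0.039, 0.036 and -0.032, against -0.033 to 0.069 for differently numbered ones). With so few libraries this cannot decide whether they were paired, and the labels do not say. With the replicate number as a block 1923 genes were higher and 5729 lower on TPM, 2971 and 3633 after rescaling.

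Peaks of a −log10 q of at least 5 gave H3K4me2 shares in GMPs of 41.2% of higher, 41.2% of lower and 33.8% of other promoters, and in preNeu of 88.8%, 87.2% and 85.7%. With 1000 bases on either side of the start the GMP share of lower promoters was 91.6%. With classes from TPM as deposited the GMP share of higher promoters was 82.2%, and CHD4 shares were 11.1% of lower and 12.0% of other promoters. The cause of these shifts was not tested. Depth is unknown for TPM, so the precision of low genes rests on the libraries alone.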

Other observations

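Interferon-stimulated genes were higher in 6 and lower in 4 of 27 on TPM (7 lower without GMP library 3), and higher in 10 and lower in 4 after rescaling (median 0.27), with TPM sums in GMPs and preNeu of 436 ± 17.7 and 440 ± 45 TPM (SD, n = 3 each). In matNeu the sum was 5174 ± 80.4 TPM. Irf7, a factor of the interferon response, was at 8.24, 6.82 and 8.73 TPM against 17.4, 34.2 and 25.7 TPM, whereas Bst2, the antiviral tetherin, was at 62.1, 57.9 and 63.9 TPM against 3.18, 6.48 and 7.7 TPM. MHC class I genes were lower in 6 of 9 on TPM, and after rescaling 4 were lower and 2 higher, or 1 higher without any library but preNeu library 1. Beside these counts, 44.3% of all tested genes were lower and 14.7% higher on TPM, and 28.2% and 23.2% after rescaling.

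Lysosome genes were lower in 15 and higher in 5 of 25 on TPM, 10 and 9 after rescaling. Gaa, the enzyme that degrades lysosomal glycogen, was at 115, 140 and 115 TPM against 7.49, 10.5 and 17.3 TPM. Lamp1, a lysosomal membrane protein, was spread in GMPs at 66.9, 228 and 652 TPM against 414, 424 and 480 TPM and was not called, except without GMP library 3 (1.82, adjusted p = 0.00876 on TPM). Cholesterol synthesis genes were lower in 11 and higher in 5 of 22 on TPM, 4 and 6 after rescaling, and without GMP library 1 or preNeu library 1 the lower count on TPM was 6. The higher count on TPM was 3 without preNeu library 2 or 3, and the rescaled lower count 2 without GMP library 2 or 3. Over all tested genes 44.3% were lower and 14.7% higher on TPM, and 28.2% and 23.2% after rescaling. The cholesterol counts are therefore not read as a change of the pathway.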
